A study of Mus musculus with 2 samples.

Results

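The genes described here encode the nuclear-encoded parts of respiratory complexes II, III, IV and V in mouse skeletal muscle. They were chosen by symbol alone: succinate dehydrogenase genes (Sdha to Sdhd and the Sdhaf factors), Uqcr and Uqcc genes, Cyc1, Cycs, every Cox gene whose symbol continues with a digit, and every Atp5 gene, where GENCODE M21 classes the gene as protein coding. The rule found 66 of 55536 annotated genes, with 65 symbols, since Atp5o has 2 identifiers. Another 9 entries with matching symbols are pseudogenes and were left out. By role, 42 members encode structural subunits and 16 encode assembly factors, and the others are Cycs, the supercomplex factor Cox7a2l, Atp5s, 4 isoforms of other tissues and the second Atp5o identifier.

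Total RNA of gastrocnemius, the large calf muscle, was sequenced from male B6CASTF1/J mice, the first-generation hybrid of C57BL/6J and CAST/EiJ. Both libraries belong to 1 group, are described as 18 to 20 months old (their age field reads unknown) and were made from 300 ng of RNA, to which ERCC spike-ins, synthetic RNAs of known amount, were added. No treatment, mutation or other genotype is given, so the only comparison is of replicate 2 with replicate 1. The labels number the males differently but give both libraries the same donor record, so the test below measures counting error between these libraries and is no test between animals.

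Complex II oxidises succinate and passes its electrons to ubiquinone, complex III hands them from ubiquinone to cytochrome c, and complex IV passes them from cytochrome c to oxygen. Complexes III and IV pump protons, and complex V, the ATP synthase, uses the return of those protons to make ATP. Complex II is encoded in the nucleus only, while the other complexes also hold subunits made from the mitochondrial genome, and several complex IV subunits exist as a form of heart and skeletal muscle and a form of most other tissues.

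The libraries held 44706521 (replicate 2) and 40576816 (replicate 1) gene counts. They stand apart in fibre-type genes. All 15 genes of a slow-type sarcomere list were higher in replicate 2 past adjusted p below 0.05 and at least 2-fold, where 4.4% of the 14965 genes tested were, and the list summed to 3447 TPM in replicate 2 and 369 TPM in replicate 1. Its most abundant gene, Mybpc1, had 581 and 107 TPM. TPM, the unit of the levels given here, is corrected for transcript length and for the library's total. Of 15 fast-type genes, 13 were lower and 2, Myh1 and Myh2, higher in replicate 2 at adjusted p below 0.05, against 16.5% and 18.3% of all genes tested, with sums of 96847 and 126572 TPM; Myh4, the fast IIb myosin, had 11005 TPM in replicate 2 and 15964 TPM in replicate 1. Myh1 had 1171 and 511 TPM, and Myh2 had 1081 and 279 TPM. Pericyte and smooth muscle markers (9 of 11 higher, 1 lower; 221 and 180.0 TPM summed) and endothelial markers (7 of 10 higher, 0 lower; 93.7 and 71.7 TPM) also lay mostly higher in replicate 2. Of 8 macrophage markers 2 were higher and 1 lower, near the shares over all genes, with sums of 45.9 and 41.1 TPM. Of 8 white adipocyte markers 4 were higher and 4 lower; Car3, which muscle fibres also make, had 610.6 TPM in replicate 2 and 161 TPM in replicate 1, and the other 7 summed to 58.2 and 75.6 TPM. Of 7 cardiac genes, Nppa, Nppb and Nkx2-5 were at 0 in both libraries and Myh6, also made in some skeletal fibres, had 73.2 TPM in replicate 2 and 5.88 TPM in replicate 1 (73.5 and 6.02 TPM for the list); among 5 brown adipocyte genes Ucp1 was at 0 (2.09 and 1.34 TPM for the list). The part of these differences in the results below was not tested, and in bulk tissue fewer cells of a type cannot be told apart from less RNA per cell.

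The subunit genes were abundant in both libraries. Their TPM summed to 17891 in replicate 2 and 13763 in replicate 1 (15827 ± 2919, SD, n = 2), which is 4.08% and 3.00% of the TPM of all nuclear protein-coding genes. Of the 42, 39 stood at or above 100 TPM in both libraries, and the 3 below were Cox6a1, Cox8a and Atp5g2. The order of the subunits by level was almost the same in both libraries (Spearman's rho 0.981 over 42 genes, which share annotation and gene length). Complex II summed to 1038 TPM in replicate 2 and 766 TPM in replicate 1 over 4 subunit genes, complex III to 3145 and 2519 TPM over 9, complex IV to 6309 and 4642 TPM over 13, and complex V to 7399 and 5837 TPM over 16.

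**Figure D1:**
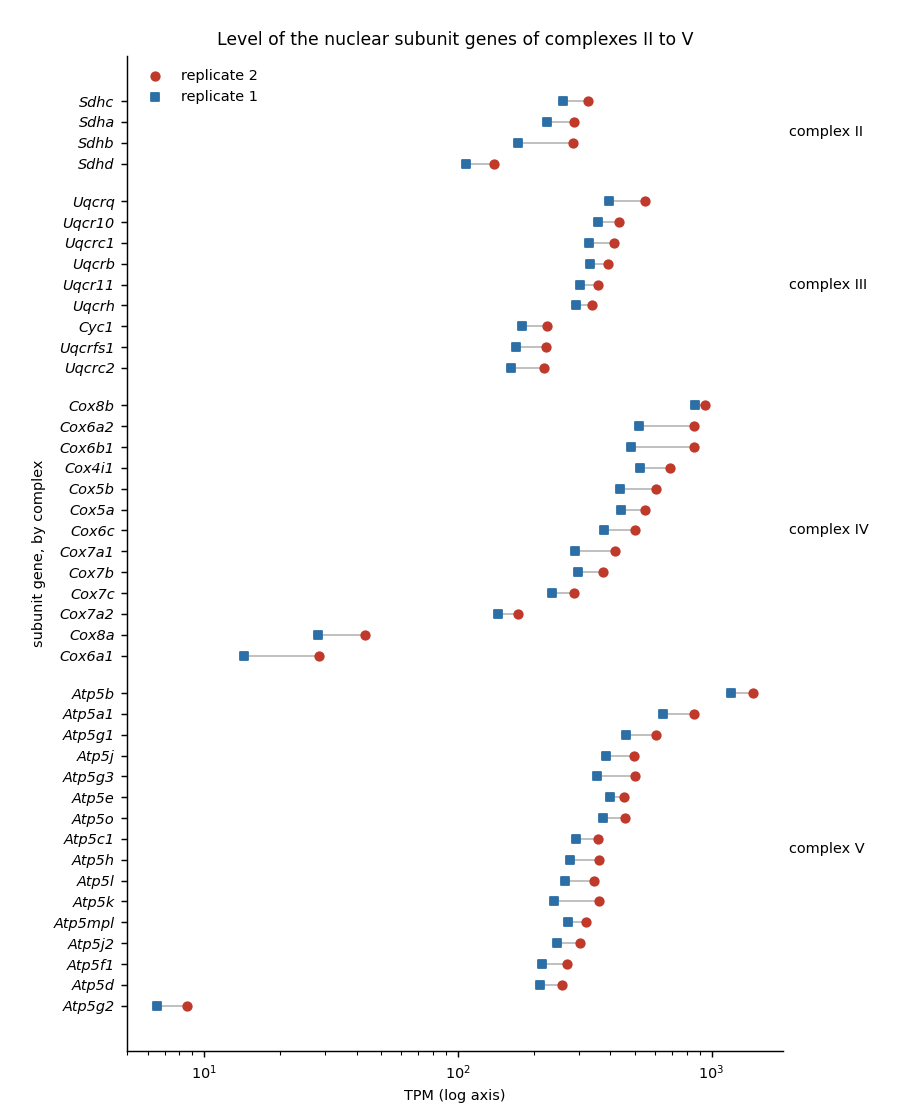
TPM (log axis) of the 42 nuclear subunit genes, grouped by complex and ordered by mean level, with replicate 2 as circles and replicate 1 as squares. Atp5b is highest at 1455 and 1191 TPM, Atp5g2 is lowest at 8.62 and 6.55 TPM, and every circle lies to the right of its square.

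In complex II, the flavoprotein Sdha, which binds succinate, had 288 TPM in replicate 2 and 225 TPM in replicate 1. Sdhb, the iron-sulfur subunit (ENSMUSG00000009863.14, mm10 chromosome 4, 140961203 to 140979193), had 285 TPM in replicate 2 and 174 TPM in replicate 1, with 10294 and 5711 counts. The membrane anchors Sdhc and Sdhd, which hold the heme and the ubiquinone site, had 326 and 139 TPM in replicate 2 against 259.7 and 108 TPM in replicate 1. The anchors thus lay at opposite ends of the complex, Sdhc above and Sdhd below both catalytic subunits in each library. In the second quantification Sdhd was again lowest, but Sdhc, at 250.5 and 199.6 TPM, lay below both catalytic subunits too. Sdhb had the largest ratio of the complex II genes, 1.59-fold over replicate 1 after scaling by library size (95% exact counting interval 1.54 to 1.64), while Sdha was 1.18-fold (1.16 to 1.21) higher.

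In complex III, the redox subunits lay below the small ones. Cyc1, cytochrome c1, had 226 TPM in replicate 2 and 179 TPM in replicate 1, and the Rieske iron-sulfur protein Uqcrfs1 had 222 and 169 TPM. Of the core proteins, which face the matrix, Uqcrc1 had 414 and 328 TPM and Uqcrc2 had 219 and 162 TPM. The small subunits ran higher: Uqcrq had 547 TPM in replicate 2 and 396 TPM in replicate 1, Uqcr10 431 and 357 TPM, Uqcrb 392 and 333 TPM, Uqcr11 357 and 303 TPM, and the hinge protein Uqcrh 338 and 292 TPM. Log2 ratios of replicate 2 over replicate 1 ran between 0.18 in Uqcrb and 0.41 in Uqcrq, a narrower range than in complexes II and IV.

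Cycs encodes cytochrome c, the carrier between complexes III and IV. It had 42.9 TPM in replicate 2 and 35.25 TPM in replicate 1, below all 9 complex III subunits, but 532 and 432 TPM in the second deposited quantification of the same libraries. The counts behind these levels were less far apart, 4221 and 3231 in the gene table and 8131 and 5982 in the second quantification. The transcript given most of the gene's TPM differed: Cycs-202, a coding transcript of 3123 nt, held 93.0% and 95.2% in the gene table, while Cycs-201, a transcript of 607 nt that the annotation classes as retained intron, held 91.1% and 90.2% in the second quantification. Its place among the members by level therefore differed between the quantifications.

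Nuclear genes give complex IV subunits that have no muscle form and subunits with a muscle and a ubiquitous form. Of the former, Cox4i1, Cox6b1 and Cox7b have isoforms of other tissues (Cox4i2, Cox6b2 and Cox7b2), given below. Among the 7 subunits with no muscle form, Cox6b1 had 849.9 TPM in replicate 2 and 480.3 TPM in replicate 1. Cox4i1, the largest nuclear subunit of the complex, had 685 and 521 TPM, and Cox5b and Cox5a had 605 and 548 TPM in replicate 2 against 436 and 439 TPM in replicate 1. Cox6c, Cox7b and Cox7c, small membrane-spanning subunits, had 499, 375 and 287 TPM in replicate 2 and 377, 299 and 234 TPM in replicate 1. All 7 lay higher in replicate 2, with log2 ratios of scaled counts between 0.24 and 0.41.

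The TPM of Cox6b1 and its counts did not move alike. It had 8573 counts in replicate 2 and 6348 counts in replicate 1, a log2 ratio of 0.25, while the log2 ratio of its TPM was 0.82. It was the 1 gene, of 38 subunit genes with several transcripts, whose leading transcript differed between the libraries in the gene table. Cox6b1-201, the full-length coding transcript of 618 nt, held 11.9% of the gene's TPM in replicate 2 and 61.4% in replicate 1. The short coding transcript Cox6b1-204 held 50.6% and 28.6%, and the retained-intron transcript Cox6b1-202 held 37.2% and 9.97%. In the second quantification Cox6b1-201 held 99.6% and 99.5%, and the gene had 542 and 468 TPM.

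For the 3 subunits with a muscle and a ubiquitous form, most of the pair's TPM in the gene table came from the muscle form. The forms of subunit 7a were close to equal in the second quantification, as given below. Cox6a2 (ENSMUSG00000030785.8, mm10 chromosome 7, 128205435 to 128206387), the heart and skeletal muscle form of subunit 6a, had 856 TPM in replicate 2 and 518 TPM in replicate 1, against 28.5 and 14.4 TPM for its ubiquitous partner Cox6a1. Cox8b, the mouse muscle form of subunit 8, had 941 and 860.5 TPM, against 43.0 and 28.1 TPM for Cox8a. Cox7a1, the muscle form of subunit 7a, had 417 and 289 TPM, against 174 and 145 TPM for Cox7a2. The muscle form thus held 96.8% (replicate 2) and 97.3% (replicate 1) of the subunit 6a pair's TPM, 95.6% and 96.8% of the subunit 8 pair's, and 70.6% and 66.6% of the subunit 7a pair's.

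The muscle and ubiquitous forms differ in sequence throughout, and all 3 muscle forms lie on chromosome 7. The coding sequences of Cox6a2 and Cox6a1 share 64.6% of aligned bases, those of Cox7a1 and Cox7a2 65.5% and those of Cox8b and Cox8a 56.4%, and no 100-nt stretch of 1 form occurs in the other. The 60 aligned bases with the most identical letters are shown for each pair, from the GENCODE M21 coding sequences, with capitals where the members of a pair differ.
Cox6a2: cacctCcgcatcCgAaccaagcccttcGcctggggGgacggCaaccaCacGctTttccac
Cox6a1: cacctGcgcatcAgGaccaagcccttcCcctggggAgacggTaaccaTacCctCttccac
Cox7a1: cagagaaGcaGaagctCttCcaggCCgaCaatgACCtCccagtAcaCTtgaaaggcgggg
Cox7a2: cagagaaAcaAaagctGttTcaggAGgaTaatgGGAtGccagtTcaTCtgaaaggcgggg
Cox8b: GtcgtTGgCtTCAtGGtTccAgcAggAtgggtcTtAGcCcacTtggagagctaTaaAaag
Cox8a: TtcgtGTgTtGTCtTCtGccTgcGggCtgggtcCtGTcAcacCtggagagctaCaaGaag
Even in these stretches the pairs differ at 9 bases (subunit 6a), 14 bases (subunit 7a) and 20 bases (subunit 8).

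The muscle share of subunit 7a depended on the quantification more than on the library. In the second quantification Cox7a1 held 52.4% of the pair's TPM in replicate 2 and 48.8% in replicate 1, so Cox7a1 and Cox7a2 stood close to equal there. The muscle to ubiquitous ratio of TPM was 2.40 and 2.00 in the gene table and 1.10 and 0.955 in the second quantification. For subunits 6a and 8 the muscle form dominated in both, with ratios of 30.0 and 36.1 (6a) and 21.9 and 30.6 (8) in the gene table and 19.3 and 23.1 (6a) and 14.5 and 25.3 (8) in the second quantification. Where the pairs differed between libraries, the direction was not shared: the log2 ratio of the muscle form minus that of its partner was -0.27 for subunit 6a, 0.24 for 7a and -0.48 for 8.

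**Figure D2:**
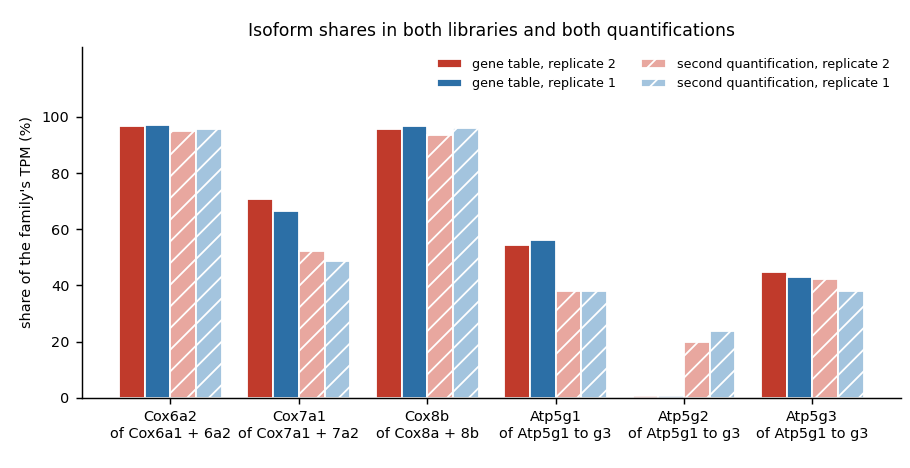
Share (%) of each family's summed TPM held by the muscle forms Cox6a2, Cox7a1 and Cox8b and by the c subunit genes Atp5g1, Atp5g2 and Atp5g3, with replicate 2 left of replicate 1 and the gene table (solid) left of the second quantification (hatched). Cox6a2 and Cox8b stay above 93% in all 4 bars, while Cox7a1, Atp5g1 and Atp5g2 differ between quantifications by more than between libraries.

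Complex IV isoforms of other tissues had few or no counts. Cox4i2, a form of lung and of oxygen-sensing cells, had 1.47 TPM in replicate 2 and 0.66 TPM in replicate 1 (32 and 13 counts), 0.214% and 0.127% of the Cox4i1 and Cox4i2 sum. Its ratio of 2.13-fold had a 95% exact counting interval of 1.11 to 4.50 and did not pass the exact binomial test after adjustment (adjusted p = 0.060); it passed both criteria under spike-in scaling and in the second quantification, at log2 ratios of 1.31 and 1.42. The testis forms were lower still: Cox6b2 had 6 counts in replicate 2 and 0 in replicate 1, and Cox7b2 and Cox8c had 0 in both. A count of 0 allows up to 0.196 TPM in replicate 2 and 0.215 TPM in replicate 1 for Cox7b2, and 0.242 and 0.265 TPM for Cox8c, counting error only.

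Complex V was led by its catalytic head. Atp5b, the beta subunit that carries the catalytic sites (ENSMUSG00000025393.12, mm10 chromosome 10, 128083273 to 128090391), had 1455 TPM in replicate 2 and 1191 TPM in replicate 1, the highest of all members and rank 27 by mean TPM among nuclear protein-coding genes. The alpha subunit Atp5a1, present in the same number of copies per enzyme, had 851 and 646 TPM. The central rotor subunits gamma (Atp5c1), delta (Atp5d) and epsilon (Atp5e) had 357, 258 and 452 TPM in replicate 2 against 293, 211 and 398 TPM in replicate 1. Peripheral stalk genes lay in a similar band, Atp5j (factor 6) at 496 and 383 TPM, Atp5o (the oligomycin sensitivity protein) at 455 and 374 TPM, Atp5h (subunit d) at 361 and 276 TPM and Atp5f1 (subunit b) at 270.5 and 216 TPM. The membrane subunits e (Atp5k), g (Atp5l), 6.8PL (Atp5mpl) and f (Atp5j2) had 361, 346, 321 and 303 TPM in replicate 2 and 239, 264, 273 and 247 TPM in replicate 1. Within these roles the levels lay within a few fold of each other, and Atp5k had the largest log2 ratio of complex V, 0.54.

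The c subunit, whose ring turns with the proton flow, is made from 3 genes that encode the same mature protein behind different import signals. Atp5g1 had 605 TPM in replicate 2 and 462 TPM in replicate 1, Atp5g3 had 499 and 355 TPM, and Atp5g2 had 8.62 and 6.55 TPM, so Atp5g2 held 0.774% and 0.796% of their sum. The low level of Atp5g2 did not hold in the second quantification, where it had 323 and 325 TPM, 19.8% and 23.8% of the sum. Atp5g2 had 189 and 130 counts in the gene table, and Gm10175 on chromosome 7, an intronless copy that the annotation classes as a transcribed processed pseudogene, had 4483 and 3896. In the second quantification Atp5g2 had 3909 and 3416 counts and Gm10175 had 0 in both libraries. The copy carries the whole 441-base coding sequence of Atp5g2 without a differing base. The first 60 bases are shown, with no capitals since no base differs.
Atp5g2: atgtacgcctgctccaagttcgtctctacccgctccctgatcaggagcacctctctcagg
Gm10175: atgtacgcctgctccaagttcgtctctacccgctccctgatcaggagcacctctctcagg
With the copy's reads added to it, Atp5g2 held 17.5% in replicate 2 and 21.3% in replicate 1 of the c subunit sum, and its log2 ratio was 0.03, against 0.36 for its own reads.

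Several other members share stretches of at least 100 nt with gene copies. Cox7c and Gm12338 on chromosome 11 agree at all 192 bases of the coding sequence, and Cycs and Gm10053 on chromosome 19 agree at all 318. Gm12338 held 2786 and 2083 counts in the gene table, which at its short length gave 866 TPM in replicate 2 and 709 TPM in replicate 1, above the 287 and 234 TPM of Cox7c; it had 0 counts in the second quantification. For Cycs, the copies held 63.6% of the joint counts in replicate 2 and 63.1% in replicate 1. For Cox7c these shares were 44.0% and 44.9%, for Atp5l 27.1% and 30.0%, and for Atp5h 16.4% and 18.4%. The levels of these members are uncertain, and the part of the copies in that was not tested. Their log2 ratios with the copies added stayed within 0.1 of those without, the exception being Atp5g2. Cox16 shares 51.7% of its 100-nt stretches with Gm20498, a coding gene that overlaps it on chromosome 12.

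**Figure D3:**
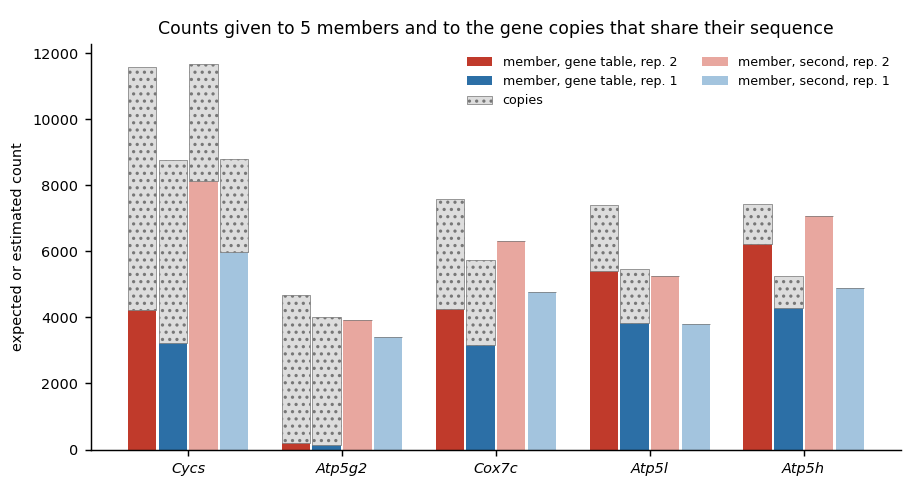
Expected or estimated counts of Cycs, Atp5g2, Cox7c, Atp5l and Atp5h (coloured) with those of the gene copies that share 100-nt stretches stacked above (dotted grey), replicate 2 left of replicate 1, for the gene table and then the second quantification. In the gene table the copies hold nearly all joint counts of Atp5g2; in the second quantification a copy fraction can be seen only for Cycs.

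Which transcript carried a subunit gene's TPM was firm between libraries and not between quantifications. Of the 38 subunit genes with several transcripts, 37 had the same leading transcript in both libraries, but 22 had the same one in both quantifications. Atp5j is an example: Atp5j-208, a retained-intron transcript, held 91.7% in replicate 2 and 91.5% in replicate 1 in the gene table, and 4.76% and 4.09% in the second quantification, where the coding Atp5j-203 held 78.4% and 84.4%. In the gene table, coding transcripts also held the smaller part of the TPM of Cox5b (37.4% and 32.1%), Cox7b (42.3% and 40.9%) and Atp5f1 (49.95% and 49.6%). They held the larger part in the other subunit genes. Transcript length went with the differences between quantifications. The 27 subunit transcripts under 400 nt held 6.95% (replicate 2) and 6.06% (replicate 1) of subunit counts in the gene table and 0.69% and 1.07% in the second quantification, with 19 and 18 of them at 0 there. Among whole genes, the count of Cox8b in the second quantification was 34.3% and 41.7% of that in the gene table, and that of Cox6a2 was 54.2% and 51.2%. In replicate 2 the second count was the lower one in 27 of the 42 subunit genes. Others went the other way, with Cox7c at 148.4% and 151.1% and Atp5e at 118.9% and 120.8%. The part of length in these whole-gene differences was not tested. Across the 42 genes the order by TPM had a Spearman's rho of 0.768 (replicate 2) and 0.758 (replicate 1) between the quantifications, which share the library and annotation.

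Between the libraries, no member passed the call rule of adjusted p below 0.05 and at least 2-fold: 0 of 62 tested were called higher in replicate 2 and 0 lower, where 4.4% and 1.65% of all genes were called. The exact binomial test gave an unadjusted p below 0.05 in 53 of the 62. The same held for 6284 of all 14965 genes tested and for 2560 of the 3745 whose counts averaged 1000 or more. At adjusted p below 0.05 without a fold criterion, 45 were higher and 3 lower in replicate 2, against 18.3% and 16.5% of all genes tested and 27.5% and 35.2% of the 3745 genes whose counts averaged 1000 or more. At 1.5-fold, 3 were higher (Cox6a1, Cox6a2 and Sdhb) and 0 lower, against 7.74% and 3.74% of all genes, and 5.37% higher among the deeply counted ones. The 4 members not tested, for a mean count under 10, were Cox6b2, Cox7b2, Cox8c and the second Atp5o identifier.

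The differences were small and lay on 1 side among the subunits. All 42 subunit genes lay above 0 on the log2 scale, and 41 of them were higher in replicate 2 at adjusted p below 0.05, Atp5g2 being the other (exact binomial test, adjusted p = 0.086). The median log2 ratio was 0.31, or 1.24-fold, and 36 of the 42 lay between 0.1 and 0.5. For comparison, the median was 0.01 over all genes tested, of which 50.8% lay above 0. Over 300 protein-coding genes that are short (under 1000 nt) and deeply counted, members included, it was 0.05. It was 0.01 over 496 nuclear protein-coding genes that averaged 100 TPM or more, members left out. Over 77 cytosolic ribosomal protein genes, another set of short, abundant messages, it was 0.01. By complex the subunit medians were 0.33 (II), 0.28 (III), 0.34 (IV) and 0.29 (V). Under spike-in scaling the median of all genes moved to 0.23 and that of the subunits to 0.53. This scaling raised every ratio by nearly the same amount, so no subunit above 0 could fall below 0. It placed 11743 of the 14965 genes tested above 0. In the second quantification 41 of the 42 subunits lay above 0, with Cox8b at -0.20.

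The largest subunit ratio was that of Cox6a1, with 467 counts in replicate 2 and 214 in replicate 1, 1.92-fold (95% exact counting interval 1.63 to 2.27). Cox6a2 followed at 1.59-fold (1.55 to 1.63), with 17202 and 9505 counts. The ubiquitous and the muscle form of subunit 6a were thus both above 1.5-fold. Cox8b lay at the other end, with a log2 ratio of 0.08 on 8497 and 7090 counts, while its partner Cox8a had 0.56 on 670 and 400 counts. The ubiquitous forms had a median of 0.56 and the muscle forms 0.48, over 3 genes each.

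**Figure D4:**
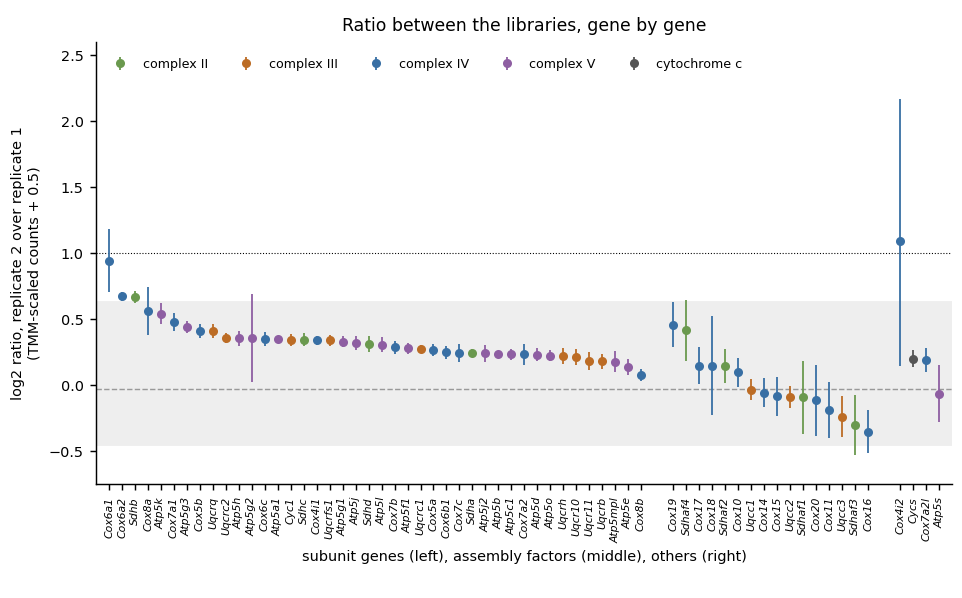
Log2 ratio of replicate 2 over replicate 1 (TMM-scaled counts + 0.5) of the 62 tested members, subunits left, assembly factors in the middle and others right, coloured by complex, with 95% exact counting intervals. The grey band holds 90% of genes whose counts averaged 1000 or more, the dashed line is their median and the dotted line is 2-fold; all 42 subunits lie above 0, with Cox8b below 0 in the second quantification, and the assembly factors lie on both sides.

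Assembly factors, which build the complexes without staying in them, were far less abundant and had no common direction. Of the 16, 12 lay below 50 TPM in both libraries, and only Uqcc2, needed for cytochrome b synthesis, was at or above 100 TPM, at 179.6 in replicate 2 and 184 in replicate 1. In complex II, Sdhaf2, which helps attach FAD to Sdha, had 20.0 and 17.8 TPM and Sdhaf3 2.49 and 2.62 TPM. Uqcc1, the partner of Uqcc2, had 76.5 and 69.1 TPM, and Uqcc3 was lowest of the complex III factors with 27.0 and 30.7 TPM. These levels are of whole genes. Coding transcripts held the smaller part of the gene-table TPM of Uqcc1 (6.55% in replicate 2 and 4.93% in replicate 1), Cox19 (30.1% and 29.5%) and Sdhaf2 (43.3% and 45.9%). They held the larger part in the other assembly factors. For Uqcc1 they held 72.5% and 72.1% in the second quantification. Sdhaf1 and Sdhaf4, which aid the iron-sulfur and the flavin subunit, had 2.75 and 19.4 TPM in replicate 2 and 2.82 and 14.0 TPM in replicate 1. The rule holds no factor of complex V. Of the complex IV factors, the copper chaperone Cox17 was highest by mean level at 74.7 and 65.3 TPM and the insertase Cox18 lowest at 3.65 and 3.30 TPM. Cox10 and Cox15, which make the heme A of the complex in successive steps, had 17.65 and 6.99 TPM in replicate 2 and 15.8 and 5.38 TPM in replicate 1. Cox11 and Cox19, factors of copper delivery, had 9.94 and 28.8 TPM in replicate 2 and 10.9 and 20.01 TPM in replicate 1. Cox14, Cox16 and Cox20, early factors that act on the mitochondrial-encoded core, had 65.7, 34.3 and 18.2 TPM in replicate 2 and 65.9, 41.7 and 18.7 TPM in replicate 1. Levels within 1 pathway step were thus not alike, and no complex IV factor reached the level of a complex IV subunit that has no muscle form. Cox14 was above Cox17 in replicate 1, and in both libraries of the second quantification. Log2 ratios were above 0 in 6 and below 0 in 10, with a median of -0.07. The median was 0.15 under spike-in scaling and 0.06 by the ratio of TPM, against 0.23 and 0.05 over all genes tested. At adjusted p below 0.05, Sdhaf4 (log2 0.42) and Cox19 (0.46) were higher in replicate 2, and Cox16 (-0.35), Sdhaf3 (-0.30) and Uqcc3 (-0.24) were lower; these 2 and 3 of 16 are near the 18.3% and 16.5% of all genes tested. Under spike-in scaling these 3 stood at -0.13, -0.07 and -0.02, and Cox16 was at -0.09 in the second quantification. Whether assembly factors and subunits differ was not tested.

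Of the members that are neither subunits nor assembly factors, Cox7a2l, which joins complexes III and IV into supercomplexes, had 69.6 TPM in replicate 2 and 58.7 TPM in replicate 1 and a log2 ratio of 0.19. Atp5s, coupling factor B, had 9.82 and 9.22 TPM and a log2 ratio of scaled counts of -0.06, which was positive by TPM and under spike-in scaling. Cycs had 0.20. Cox7a2l and Cycs were higher at adjusted p below 0.05.

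Genes of the same pathway outside the rule differed to unequal extents. The 46 Nduf genes are named for nuclear complex I subunits and their assembly factors. At adjusted p below 0.05, 32 of them were higher and 1, Ndufc1, was lower, against 18.3% and 16.5% of all genes tested. The log2 ratio exceeded 0 for 40 of them, and the median was 0.17. Ndufa4, named for complex I but found with complex IV, was the most abundant of them, at 633 TPM in replicate 2 and 575 TPM in replicate 1. The 6 mitochondrial-encoded subunits of complexes III to V were all higher, with a median of 0.63; mt-Co1, the catalytic core of complex IV, had 19428 TPM in replicate 2 and 12971 TPM in replicate 1, on counts that are fractional and so were partly shared with other entries. The mitochondrial-encoded over nuclear-encoded TPM was 3.78 and 3.32 in complex III, 3.46 and 3.10 in complex IV, and 2.04 and 1.54 in complex V. The complex IV ratio includes mt-Co2, at only 146 TPM in replicate 2 and 92.4 TPM in replicate 1. In the second quantification the ratios were 3.51 and 3.12 (III), 4.06 and 3.425 (IV) and 2.37 and 2.02 (V). The median log2 ratio of the 6 mitochondrial-encoded subunits was 0.45 there. Of 25 assembly and partner genes outside the symbol rule, 4 were higher and 3 lower, no larger shares than the 18.3% and 16.5% of all genes, with a median of 0.10; Slirp, which stabilises mitochondrial messages, was the most abundant with 68.1 TPM in replicate 2 and 69.1 TPM in replicate 1.

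Of 14 regulators of respiratory genes, 6 were higher and 0 lower in replicate 2 at adjusted p below 0.05, and 2 passed the 2-fold rule. Over all genes tested, 18.3% were higher, 16.5% lower and 4.4% higher by the 2-fold rule. The 2 regulators past the 2-fold rule were Esrrg, an estrogen-related receptor, and Ppara, a fatty acid receptor. Esrrg had 14.7 TPM in replicate 2 and 2.90 TPM in replicate 1 (4.27-fold), and Ppara had 9.22 and 3.86 TPM (2.44-fold). The coactivators Ppargc1a (22.4 and 15.7 TPM) and Ppargc1b (5.45 and 2.96 TPM) were higher at 1.59-fold and 1.47-fold. Esrra was the most abundant regulator, at 39.3 and 31.6 TPM, and was also higher. Nrf1, the nuclear respiratory factor, had 362 counts in replicate 2 and 303 counts in replicate 1 with a log2 ratio of 0.07, although its TPM was lower in replicate 2 (4.15 and 4.74). Tfam, which packages mitochondrial DNA, had 1220 and 1032 counts with a log2 ratio of 0.06. Neither passed the test. The slow-type sarcomere list had a median of 3.31 and the fast-type list of -0.53, far from the subunits' 0.31 on either side.

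**Figure D5:**
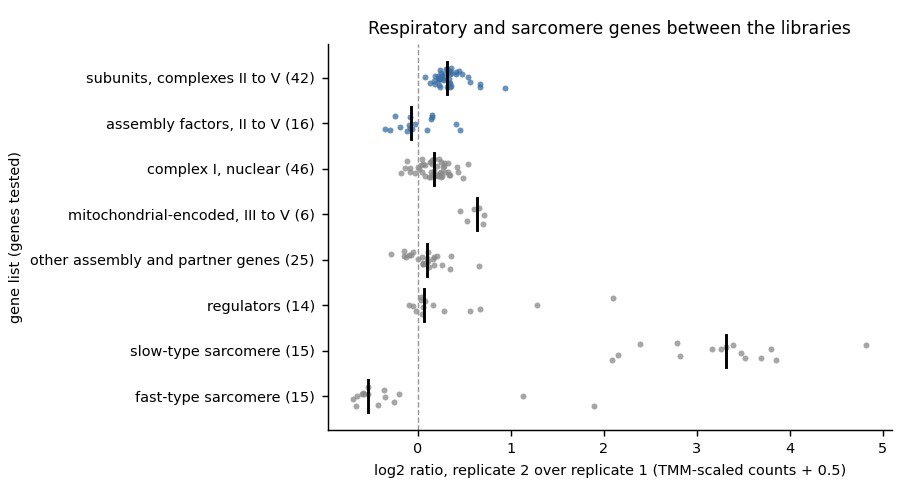
Log2 ratio of replicate 2 over replicate 1 (TMM-scaled counts + 0.5) of every tested gene in 8 lists, members in blue and other lists in grey, with the median as a black bar and the number of genes in brackets. The subunits gather near 0.31, the slow-type sarcomere genes near 3.31 and the fast-type genes near -0.53, with Myh1 and Myh2 on the positive side.

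Promoter letters were read because all subunits shared a direction. RefSeq promoter windows (GRCm38.p6, 250 bases before to 50 after the start) were matched by symbol for 49 of the 65 symbols. Both strands were searched, and a gene counted where any of its windows held the letters. GCGCATGC, the core that nuclear respiratory factor NRF1 binds, was in 8 of 49 (16.3%) and in 3.05% of all 27025 genes of the table. CCGGAAG, an ETS motif of the kind GABP binds, was in 20 (40.8%) and in 9.93% of all. AAGGTCA, read by estrogen-related receptors, was in 6 (12.2%) and in 5.38% of all, and AAGATGG, read by YY1, was in 6 (12.2%) and in 7.28%. The muscle motifs were not more frequent: CAGCTG, an E-box of the myogenic factors, was in 3 (6.12%) and in 18.3% of all, and TATTTATA, a MEF2 core, in 0 of 49 and in 2.01% of all. A match is letters in a window and shows no binding.

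By role, the NRF1 core was in the windows of 7 of 31 subunit genes (Atp5g2, Atp5k, Atp5l, Cox6a1, Sdhb, Uqcr11 and Uqcrc1) and in 0 of 14 assembly factors, with Cycs the other member; the ETS motif was in 12 of 31 and in 8 of 14. Of the 8 genes with the NRF1 core, 5 also held the ETS motif. These shares were not tested against each other. The median G and C content of the 250 upstream bases was 54.0% in subunits, 59.8% in assembly factors and 52.8% over all genes of the table, and its part in the shares was not tested. The muscle form Cox6a2, also higher at 1.5-fold, had no promoter window. The 250 bases before the start are shown for the muscle forms Cox7a1 and Cox8b, for Cox6a1 and Sdhb, members above 1.5-fold, and for Cycs, with matches in capitals.
Cox7a1 (chr7:30183921-30184170, plus strand): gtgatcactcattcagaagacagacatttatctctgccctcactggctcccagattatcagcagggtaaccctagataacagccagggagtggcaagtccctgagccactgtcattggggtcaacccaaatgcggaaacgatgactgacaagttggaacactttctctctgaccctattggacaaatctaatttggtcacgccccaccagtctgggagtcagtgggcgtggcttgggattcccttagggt
Cox8b (chr7:140900447-140900696, minus strand): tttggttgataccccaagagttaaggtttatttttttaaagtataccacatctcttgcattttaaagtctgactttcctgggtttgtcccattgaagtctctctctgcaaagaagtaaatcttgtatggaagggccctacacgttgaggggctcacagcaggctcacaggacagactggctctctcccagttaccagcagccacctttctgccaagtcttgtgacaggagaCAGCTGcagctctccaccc
Cox6a1 (chr5:115348959-115349208, minus strand): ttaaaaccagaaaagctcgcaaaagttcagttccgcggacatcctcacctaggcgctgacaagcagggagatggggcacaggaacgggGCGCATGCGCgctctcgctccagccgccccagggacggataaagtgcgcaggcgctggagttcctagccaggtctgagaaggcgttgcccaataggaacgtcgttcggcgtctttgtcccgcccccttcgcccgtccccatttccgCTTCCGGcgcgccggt
Sdhb (chr4:140961021-140961270, plus strand): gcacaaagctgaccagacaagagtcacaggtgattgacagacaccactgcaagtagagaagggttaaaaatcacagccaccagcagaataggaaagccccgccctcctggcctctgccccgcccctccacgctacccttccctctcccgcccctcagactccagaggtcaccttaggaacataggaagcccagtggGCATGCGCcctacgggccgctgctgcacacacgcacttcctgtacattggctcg
Cycs (chr6:50566570-50566819, minus strand): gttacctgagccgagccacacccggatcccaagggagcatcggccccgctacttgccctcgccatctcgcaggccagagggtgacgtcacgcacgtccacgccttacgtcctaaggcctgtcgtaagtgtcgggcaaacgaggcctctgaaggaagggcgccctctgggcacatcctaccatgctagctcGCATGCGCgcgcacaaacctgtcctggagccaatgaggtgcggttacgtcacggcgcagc
The NRF1 core overlapped its own reverse complement in Cox6a1, with matches starting 162 and 160 bases before the start, and lay 54 to 47 bases before it in Sdhb and 60 to 53 in Cycs. Cox6a1 also held the ETS motif at 16 to 10 bases before the start, while that of Sdhb lies outside the bases shown. Positions count from the RefSeq start. GENCODE M21 begins Sdhb and Cox6a1 further upstream, so the NRF1 core of Sdhb and the ETS motif of Cox6a1 lie inside those genes. Cox8b held an E-box at 19 to 14 bases before the start, and Cox7a1 held none of the 6 motifs. The shown stretch of Cox8b was 47.2% G and C with 1 CG pair, against 62.8% and 26 CG pairs in Cox6a1.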

How the data were processed

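Total RNA-seq of 2 libraries of 1 group was analysed. Per the file headers, the authors deposited expected counts and TPM per gene and transcript, with each transcript's percent of its gene's TPM and a posterior standard deviation of each count (a signal column, not used in a test), and a second table of estimated counts and TPM per transcript, summed here per gene. Assembly mm10 and annotation M21 are per the deposited file list; the sources used here do not give the aligner, quantifier or strand setting. TMM factors came from edgeR 4.0.16 and alternative size factors from DESeq2 1.42.0 in R 4.3.3. Expected counts were rounded, and a 2-sided exact binomial test (scipy 1.17.1) compared the libraries gene by gene, with Benjamini-Hochberg adjustment over 14965 genes, those whose counts averaged 10 or more. A call needs adjusted p below 0.05 and at least 2-fold. It holds counting error between 2 libraries only; edgeR's quasi-likelihood test could not be run, since 1 library a side leaves no spread to estimate. Log2 ratios use scaled counts + 0.5, and intervals are exact (Clopper-Pearson, 95%). Reads are not independent molecules, so intervals and floors of 3 counts cover counting error only. The test was checked on simulated data. Spike-in counts were 212898 and 218897. Sequence stretches of 100 nt were compared between GENCODE transcripts, since effective lengths lie 99 nt below annotated lengths, and coding sequences were aligned with Biopython 1.88. Named with values are all subunits, every isoform pair, the members with the 3 highest and 3 lowest ratios and the highest and lowest assembly factor of each complex. The rule also held every called and the most abundant genes of other lists; of these only some are named, the rest being given as counts and sums. Members and lists were chosen with earlier results of these data known.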

Additional observations from a re-analysis of the deposited data

How the results depend on the processing

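Per gene, 62 of 62 log2 ratios kept their direction with DESeq2 size factors, with 5 added and with the reads of gene copies added. No gene gained or lost a call in these settings. With 5 added, Cox4i2, not called, stood at 0.89, under 2-fold. DESeq2 size factors lowered every ratio by nearly the same small amount, and adding 5 to both scaled counts cannot turn a sign. Neither could therefore have reversed a member's direction. The setting with copies was chosen after seeing the data, as were the backgrounds of short and of abundant genes. Spike-in scaling moved the median of all genes tested from 0.01 to 0.23. It turned Sdhaf1 (0.13), Uqcc1 (0.19), Uqcc2 (0.14), Cox11 (0.036), Cox14 (0.17), Cox15 (0.14), Cox20 (0.11) and Atp5s (0.16) positive. The TPM ratio turned Uqcc1 (0.15), Cox15 (0.35) and Atp5s (0.086) positive, and the second quantification turned Cox8b negative (-0.20). Members called higher numbered 2 with spike-in scaling (Cox6a1 and Cox4i2), 1 in the second quantification (Cox4i2) and 3 at 1.5-fold. With no fold threshold 45 were higher and 3 lower. Of all genes tested, 7.74% were called higher at 1.5-fold, and 18.3% were higher and 16.5% lower with no fold threshold. Such shares are not given here for spike-in scaling or the second quantification, so those counts cannot be read against a background. Medians under spike-in scaling were 0.47 (members), 0.53 (subunits) and 0.15 (assembly factors, 0.061 by TPM ratio). Mean isoform shares in the second quantification and by counts were 95.5% and 97.6% (Cox6a2), 50.6% and 56.1% (Cox7a1), 94.9% and 93.7% (Cox8b), 38.0% and 50.4% (Atp5g1), 21.8% and 0.888% (Atp5g2), and 40.2% and 48.7% (Atp5g3); with copies added they were 46.5%, 19.4% and 34.0% for Atp5g1, Atp5g2 and Atp5g3. Summed TPM in the second quantification and rescaled to nuclear protein-coding genes was 4240.1 and 6336 (complex III), 8255 and 12264 (IV), 10940.1 and 14811 (V) and 482 and 87.4 (Cycs), and 2019.6 rescaled for complex II. The cause of these shifts was not tested. Each value without a replicate is the other library's value given in the report. No paired analysis was possible because there is 1 group. With 2 libraries of 1 group, the spread between animals cannot be estimated, and strand use in counting is not given, so overlapping genes cannot be told apart.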
